A study of Mus musculus with 12 samples.

Results

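Aminoacyl-tRNA synthetases, the enzymes that join each amino acid to its tRNA before protein synthesis, were followed in cells from the mandibular condylar cartilage of mice. Genes were taken by their annotation with the Gene Ontology term aminoacyl-tRNA ligase activity and by at least 10 counts in at least 3 of 12 libraries, and 41 of the 31075 genes in the table qualified. No gene with the term fell short of the count limit, and all 41 entered the test. They comprised 19 cytosolic enzymes, 17 mitochondrial enzymes, Gars, whose product charges glycine tRNA in both compartments, and 4 other genes. Those 4 were Aarsd1, a relative of the alanyl enzyme that edits mischarged tRNA, Aimp2, a scaffold protein of the multisynthetase complex, Dalrd3, which holds an anticodon-binding domain, and Gm27029. Kars, the lysyl enzyme of both compartments, does not carry the term in the table used here and was not counted.

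The cells came from mice that lack the proteoglycan NG2, encoded by Cspg4 (KO), and from C57BL/6J wild type mice (WT). The KO allele derives from a knockout-first Cspg4 allele that was crossed with a Cre line to give a reporter-tagged deletion, then backcrossed to C57BL/6J. All cells were primary cultures from pups aged 10 to 14 days, and the libraries were made from poly(A) RNA. The labels give passage 4, whereas the study's methods state use before passage 3. Opti cultures were kept in serum-free Optimem and Norm cultures in AMEM with heat-inactivated fetal bovine serum, so serum and basal medium changed together. L-glutamine, penicillin and Plasmocin were present in both media. Each of the 4 groups, KO_Opti, KO_Norm, WT_Opti and WT_Norm, had 3 libraries.

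The labels of the 6 KO libraries contradict themselves, since the medium in the title is not the medium in the treatment entry. KO groups follow the title here, and every result that turns on this choice is also given by the treatment entry. The study's methods call the 3 libraries of a group biological replicates. Neither they nor the labels say which animals or cultures the libraries came from.

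Libraries held 51546504 to 71448484 counts, and the 41 genes took 0.328% to 0.744% of them. Cspg4 averaged 12.5 ± 2.2 CPM (counts scaled to library size by trimmed mean of M values) in the 6 KO libraries and 169 ± 37 CPM in the 6 WT libraries (SD), with no overlap (two-sided exact permutation p = 0.00216, which is the floor of this design). The type I collagen gene Col1a1 was high, at 17910.3 to 26616 CPM in KO_Opti, 37143 to 46809 CPM in KO_Norm, 54518 to 62778 CPM in WT_Opti and 71026 to 82155 CPM in WT_Norm, while the cartilage gene Acan had 18.3 to 27.7 CPM in KO_Opti, 8.93 to 20.8 CPM in KO_Norm, 1.19 to 2.41 CPM in WT_Opti and 62.7 to 69.2 CPM in WT_Norm and Col2a1 had 36.5 to 49.7 CPM in KO_Opti, 73.9 to 102 CPM in KO_Norm, 16.7 to 19.4 CPM in WT_Opti and 70.7 to 81.6 CPM in WT_Norm. Endothelial markers summed to 0.563 to 0.867 CPM in KO_Opti, 0.601 to 0.987 CPM in KO_Norm, 0.849 to 3.47 CPM in WT_Opti and 1.34 to 36.5 CPM in WT_Norm, and the highest value came from WT_Norm replicate 2, which also held 41.4 CPM of the keratin gene Krt5. Epithelial markers summed to 1.18 to 15.8 CPM in KO_Opti, 1.79 to 10.8 CPM in KO_Norm, 4.73 to 9.55 CPM in WT_Opti and 1.73 to 143 CPM in WT_Norm. Within WT_Norm this sum was 88.9 CPM in replicate 1, 143 CPM in replicate 2 and 1.73 CPM in replicate 3, so that 2 of the 3 libraries stood above all others. Neural and glial markers summed to 31.2 to 38.3 CPM in KO_Opti, 33.8 to 37 CPM in KO_Norm, 21.5 to 26.8 CPM in WT_Opti and 43.6 to 186 CPM in WT_Norm, and the highest value came from WT_Norm replicate 3. Myeloid and osteoclast markers summed to 568 to 604 CPM in KO_Opti, 1019.8 to 1184 CPM in KO_Norm, 1142 to 1506 CPM in WT_Opti and 1129 to 1393 CPM in WT_Norm. Of 4 Y-linked genes, Ddx3y, Kdm5d and Uty were higher in every KO_Norm library than in any other library, and Eif2s3y overlapped with KO_Opti. Ddx3y had 25.7 to 29.3 CPM in KO_Opti, 48.4 to 56.8 CPM in KO_Norm and 14.1 to 30.3 CPM in WT_Norm. Xist was lowest in KO_Norm, at 33.3 to 58.7 CPM. It had 217 to 450 CPM in KO_Opti, 166 to 306 CPM in WT_Opti and 154 to 210.3 CPM in WT_Norm. The part of cell mixture and sex of the pups in the results was not tested beyond the alternatives given with each.

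Cytosolic synthetases charge the tRNAs that cytosolic ribosomes use, and several of them form a multisynthetase complex with the scaffold proteins Aimp1, Aimp2 and Eef1e1. Mitochondrial synthetases are encoded in the nucleus by separate genes for most amino acids and charge the tRNAs of the mitochondrial genome. Genes of several cytosolic enzymes are known targets of ATF4, the factor translated when amino acid shortage or endoplasmic reticulum stress leads to phosphorylation of eIF2alpha. Nuclear genes for mitochondrial proteins are known targets of nuclear respiratory factor 1.

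Per length, the cytosolic enzymes were more abundant. Averaged over 12 libraries, their median level was 26.4 FPKM (fragments scaled by transcript length and library size), from 1.24 FPKM for Tarsl2, a second threonyl enzyme, to 95.6 FPKM for Nars, the asparaginyl enzyme. The mitochondrial median was 2.41 FPKM, and 16 of the 17 mitochondrial enzymes averaged under 7.25 FPKM or at that value. Lars2, the mitochondrial leucyl enzyme, stood apart with 46.4, 61.7 and 47.3 FPKM in KO_Opti, 69.1, 153 and 195 FPKM in KO_Norm, 104, 106 and 190.3 FPKM in WT_Opti, and 87.9, 132 and 293 FPKM in WT_Norm. Within WT_Norm its highest library exceeded its lowest severalfold, so sums over mitochondrial enzymes are given without it.

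**Figure D1:**
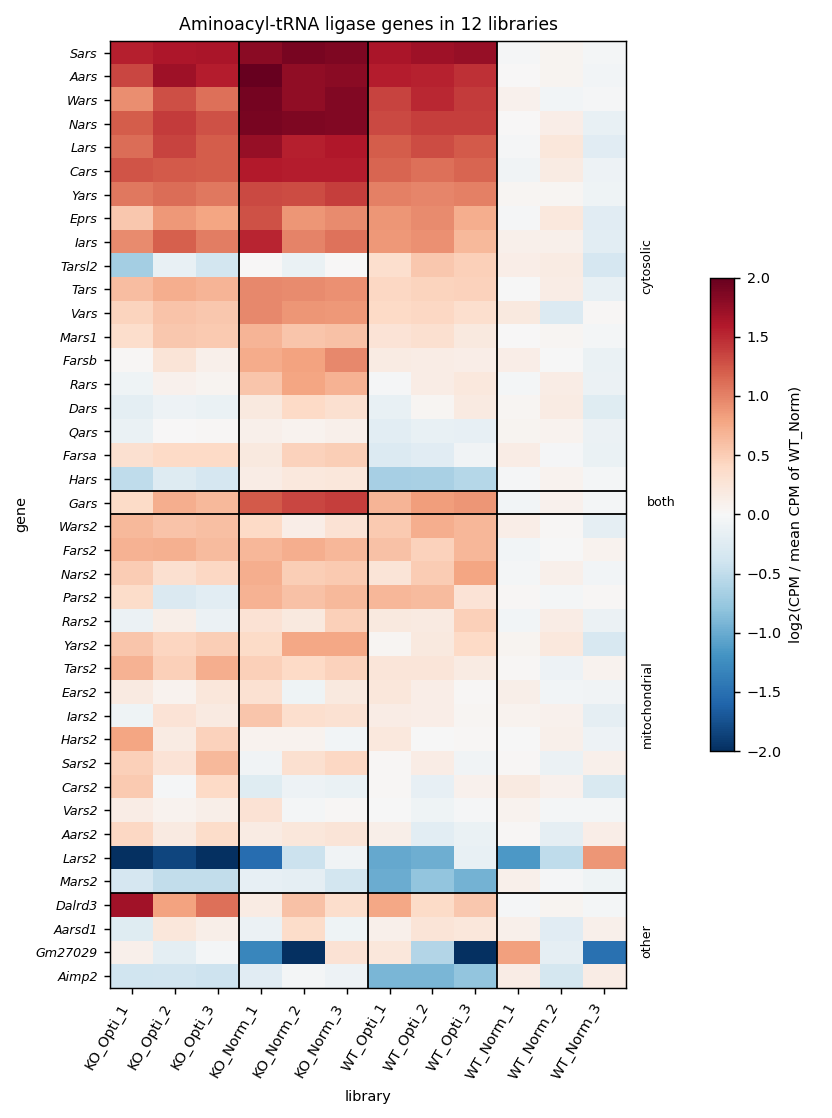
Level of 40 of the 41 genes (rows, by compartment) in each of 12 libraries (columns), as log2 of CPM over the mean CPM of the 3 WT_Norm libraries. Red cells are above and blue cells below WT_Norm, the scale stops at -2 and 2, and 1 library of Gm27029 with 0 counts is drawn at the lower end. The upper cytosolic rows are red in all 9 libraries outside WT_Norm, whereas most mitochondrial rows are pale.

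The question of the WT comparison was how the serum-free medium changed these genes in cells with NG2. Of 41 genes, 20 were higher and 3 lower in WT_Opti than in WT_Norm at an adjusted p under 0.05, beside 20.3% of all 19118 genes tested called higher and 19.6% called lower. Of 19 cytosolic enzymes, 13 were higher and 1 was lower, with a median log2 fold change of 0.45. Of 17 mitochondrial enzymes, 5 were higher and 1 was lower, with a median of 0.13, and the median over all genes was -0.01. Without WT_Norm replicate 1, which was high in epithelial transcripts, 15 were higher and 3 lower. Without WT_Norm replicate 2, which was high in epithelial and endothelial transcripts, 17 were higher and 3 lower. Without WT_Norm replicate 3, which was high in neural and glial transcripts, 15 were higher and 4 lower. This comparison is the same by either reading of the KO labels.

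Sars, the seryl enzyme (ENSMUSG00000068739, chr3:108424865-108445209, - strand, in coordinates of the GRCm38 build), had 446, 466 and 471 CPM in KO_Opti, 532, 567 and 556 CPM in KO_Norm, 471, 489 and 506 CPM in WT_Opti, and 149.8, 158 and 148 CPM in WT_Norm. All WT_Opti libraries lay far above all WT_Norm libraries (log2 fold change 1.69 ± 0.08 SE, edgeR adjusted p = 1.5e-08). Aars, the alanyl enzyme (ENSMUSG00000031960, chr8:111033144-111046743, + strand, in coordinates of the GRCm38 build), had 445, 567 and 521 CPM in KO_Opti, 700.4, 601 and 614 CPM in KO_Norm, 521, 510.3 and 484 CPM in WT_Opti, and 177, 182 and 168 CPM in WT_Norm. It too rose without overlap (log2 fold change 1.52 ± 0.11 SE, edgeR adjusted p = 2.89e-07).

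Wars, the tryptophanyl enzyme, which interferon is also known to induce, had 88.2, 113 and 99.96 CPM in KO_Opti, 175, 159 and 166 CPM in KO_Norm, 118, 132 and 122 CPM in WT_Opti, and 48.9, 44.7 and 45.4 CPM in WT_Norm (log2 fold change 1.42 ± 0.10 SE, edgeR adjusted p = 2.93e-07). Nars had 422, 483 and 444 CPM in KO_Opti, 686, 671 and 659 CPM in KO_Norm, 457, 476 and 479 CPM in WT_Opti, and 184, 201 and 166 CPM in WT_Norm (log2 fold change 1.36 ± 0.09 SE, edgeR adjusted p = 2.84e-07). The 3 WT_Norm libraries were the lowest of 12 for both genes. Cars, the cysteinyl enzyme, had 107, 106 and 105 CPM in KO_Opti, 136, 134 and 134 CPM in KO_Norm, 101, 96.4 and 102 CPM in WT_Opti, and 43, 50.4 and 42 CPM in WT_Norm (log2 fold change 1.14 ± 0.08 SE, edgeR adjusted p = 3.68e-07), and Yars, the tyrosyl enzyme, had 120.4, 125 and 119.6 CPM in KO_Opti, 144, 143 and 151 CPM in KO_Norm, 116, 114 and 116 CPM in WT_Opti, and 59.6, 59.5 and 54.5 CPM in WT_Norm (log2 fold change 0.99 ± 0.07 SE, edgeR adjusted p = 4.24e-07). Their libraries within a group lay close together, and WT_Norm was again separate. Among the rest, the leucyl enzyme Lars rose by 1.24, the glutamyl-prolyl enzyme Eprs by 0.85 and the isoleucyl enzyme Iars by 0.82 on the log2 scale. Smaller increases were called for Tarsl2 (0.45), the threonyl enzyme Tars (0.44), the valyl enzyme Vars (0.38) and the methionyl enzyme Mars1 (0.26). Mars1 overlaps Ddit3 on the opposite strand, and whether counting used strand is not stated. The calls for Tarsl2 and for the mitochondrial Pars2 were lost with RLE or upper quartile scaling, and that for Mars1 without WT_Norm replicate 1 or 3 or WT_Opti replicate 2.

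Not all cytosolic enzymes moved this way. Hars, the histidyl enzyme, had 56.5, 67.2 and 63.8 CPM in KO_Opti, 89.8, 93.2 and 94.5 CPM in KO_Norm, 51.1, 51.6 and 54.4 CPM in WT_Opti, and 79.4, 84.6 and 78.2 CPM in WT_Norm. It fell in WT_Opti with no overlap with WT_Norm (log2 fold change -0.62 ± 0.08 SE, edgeR adjusted p = 5.92e-05), and its gene overlaps Hars2 on the opposite strand, which had a log2 fold change of 0.08 and was not called. The aspartyl enzyme Dars (0.03), the arginyl enzyme Rars (0.12), the glutaminyl enzyme Qars (-0.17) and the phenylalanyl subunits Farsa (-0.18) and Farsb (0.15) did not pass the test. Of the 7 enzymes of the multisynthetase complex that were counted, Eprs, Iars, Lars and Mars1 were higher and Dars, Qars and Rars were not called. Kars, an enzyme of the complex that was not counted, was lower, as given below. Of the 12 cytosolic enzymes outside the complex, 9 were higher and 1 was lower. By catalytic fold, 8 of 10 class I enzymes and 5 of 9 class II enzymes were higher. Eprs, which joins a glutamyl and a prolyl enzyme, was counted in class I only.

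Gars had 251, 321 and 302 CPM in KO_Opti, 450.1, 489 and 504 CPM in KO_Norm, 311, 345 and 356 CPM in WT_Opti, and 186, 206 and 188 CPM in WT_Norm, and rose in WT_Opti without overlap (log2 fold change 0.80 ± 0.10 SE, edgeR adjusted p = 5.61e-05). Kars, which also serves both compartments, had 93.9, 112 and 113 CPM in KO_Opti, 143, 159 and 162 CPM in KO_Norm, 101, 105 and 107 CPM in WT_Opti, and 158, 155 and 151 CPM in WT_Norm. In contrast to Gars it was lower in every WT_Opti library than in every WT_Norm library (log2 fold change -0.57 ± 0.09 SE, edgeR adjusted p = 0.000248).

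Fewer of the mitochondrial enzymes were called. Wars2, the tryptophanyl enzyme, had 13.4, 12.8 and 13 CPM in KO_Opti, 11.3, 9.39 and 10.5 CPM in KO_Norm, 12.3, 14.2 and 13.6 CPM in WT_Opti, and 9.38, 8.76 and 7.57 CPM in WT_Norm (log2 fold change 0.64 ± 0.12 SE, edgeR adjusted p = 0.00113). Fars2, the phenylalanyl enzyme, had 19.8, 20.1 and 18.9 CPM in KO_Opti, 19.5, 20.2 and 19.3 CPM in KO_Norm, 18.4, 17 and 19.4 CPM in WT_Opti, and 11.8, 12.2 and 12.9 CPM in WT_Norm (log2 fold change 0.57 ± 0.09 SE, edgeR adjusted p = 0.000326). Nars2, the asparaginyl enzyme, had 10.2, 8.90 and 9.52 CPM in KO_Opti, 11.8, 10.1 and 10.2 CPM in KO_Norm, 8.51, 10.1 and 12.4 CPM in WT_Opti, and 6.92, 7.64 and 6.84 CPM in WT_Norm (log2 fold change 0.54 ± 0.15 SE, edgeR adjusted p = 0.012). For all 3 genes each WT_Opti library lay above each WT_Norm library, and the Nars2 call was lost without WT_Opti replicate 3. The prolyl enzyme Pars2 (0.53) was also called higher. Mars2, the methionyl enzyme, went the other way with 8.91, 8.0 and 7.99 CPM in KO_Opti, 10.1, 9.95 and 8.71 CPM in KO_Norm, 5.67, 6.49 and 5.88 CPM in WT_Opti, and 12.1, 11.1 and 10.6 CPM in WT_Norm (log2 fold change -0.91 ± 0.12 SE, edgeR adjusted p = 8.43e-05). Its WT_Norm libraries were the highest of 12. Lars2, at log2 fold change -0.65 ± 0.46 SE, was not called.

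Among the other 4 genes, Dalrd3 had 40.03, 21.7 and 26.8 CPM in KO_Opti, 14, 18.8 and 16 CPM in KO_Norm, 21.3, 16.3 and 18.1 CPM in WT_Opti, and 12.4, 13 and 12.2 CPM in WT_Norm and was higher in WT_Opti (log2 fold change 0.57 ± 0.20 SE, edgeR adjusted p = 0.0342), although it overlaps Wdr6 on the opposite strand and the call was lost with RLE or upper quartile scaling and without any 1 WT_Norm library or WT_Opti replicate 1 or 3. Of the scaffold proteins, Aimp2, which overlaps Eif2ak1, had 20.1, 20.3 and 19.8 CPM in KO_Opti, 22.6, 25.8 and 24.7 CPM in KO_Norm, 14.1, 14.1 and 15.4 CPM in WT_Opti, and 29.6, 20.8 and 29.3 CPM in WT_Norm and fell (log2 fold change -0.87 ± 0.13 SE, edgeR adjusted p = 0.000154). Eef1e1 had 31.9, 21.2 and 24.6 CPM in KO_Opti, 23.6, 29.8 and 29 CPM in KO_Norm, 13.1, 14.8 and 18.2 CPM in WT_Opti, and 27, 24.9 and 19.3 CPM in WT_Norm and also fell (log2 fold change -0.63 ± 0.18 SE, edgeR adjusted p = 0.0135). Aimp1 had 46.5, 46.2 and 47.3 CPM in KO_Opti, 50.1, 67.3 and 66.1 CPM in KO_Norm, 51.5, 54.5 and 64.8 CPM in WT_Opti, and 47.1, 53.4 and 44.1 CPM in WT_Norm and was not called (log2 fold change 0.24). Every WT_Opti library of Aimp2 and Eef1e1 lay below every WT_Norm library, whereas those of Aimp1 overlapped. Aarsd1 and Gm27029, which overlap each other on the same strand, were not called.

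**Figure D2:**
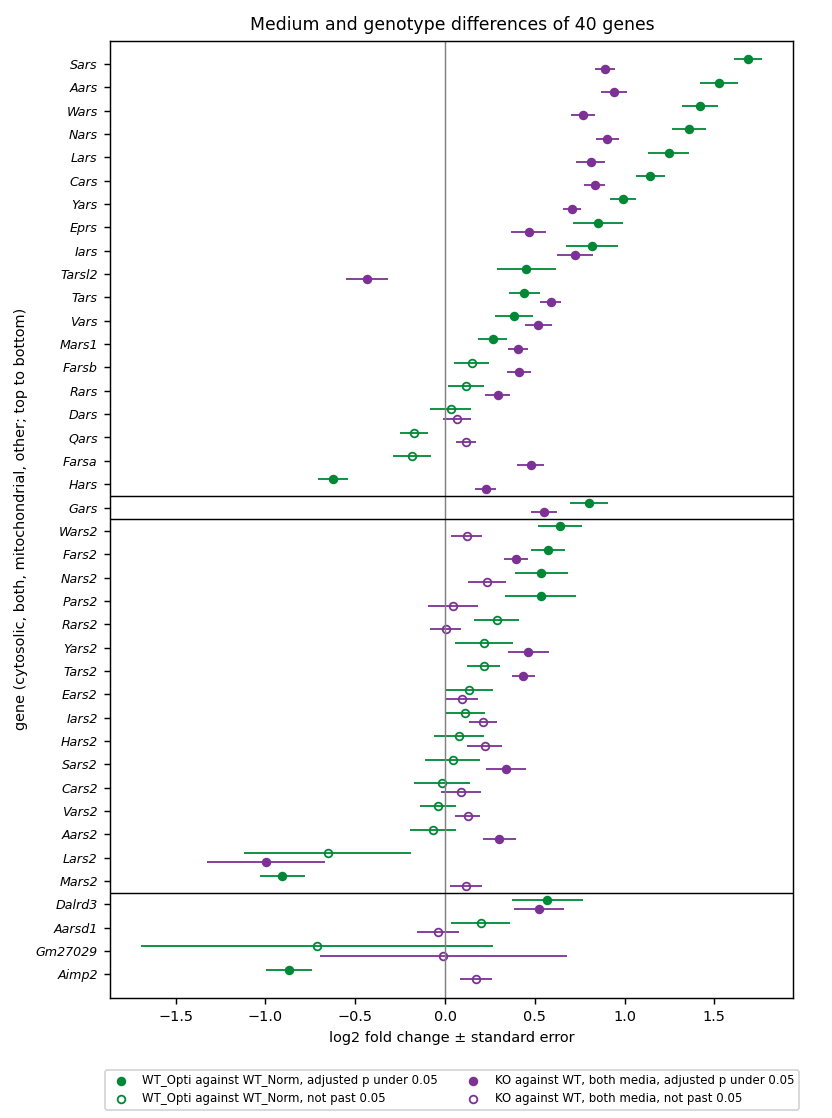
Log2 fold change with its standard error for 40 of the 41 genes, in WT_Opti against WT_Norm (green) and in KO against WT over both media (purple). Filled points passed an adjusted p of 0.05. The cytosolic enzymes at the top of the plot reach 1.69 for the medium and 0.94 for the genotype, and no mitochondrial enzyme exceeds 0.64 or 0.46.

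Enzymes for the same amino acid were set side by side in 17 pairs, with Fars2 paired to both Farsa and Farsb. Eprs was paired to Ears2 only, not to the prolyl enzyme Pars2, and Tarsl2 was left out. In WT_Opti against WT_Norm the cytosolic log2 fold change was above the mitochondrial one in 12 of 17 pairs, as for Sars at 1.69 and Sars2 at 0.04. The exceptions included the histidyl and arginyl pairs and both phenylalanyl pairs. In KO against WT the cytosolic value was above in 17 of 17 pairs. The gap was small for Hars (0.226) and Hars2 (0.220) and for Farsb (0.410) and Fars2 (0.394). The unpaired Tarsl2 stood above Tars2 in WT_Opti against WT_Norm but below it in KO against WT.

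Genes that respond to amino acid shortage rose along with most cytosolic enzymes in WT_Opti against WT_Norm. Between KO_Norm and WT_Opti this did not hold throughout, since Ddit3 was lower in KO_Norm (log2 fold change -0.84), Atf4 was not called (-0.10) and Asns was higher (0.52). All 21 genes of that list that were tested were higher in WT_Opti than in WT_Norm, with a median log2 fold change of 1.86. Trib3, a pseudokinase that restrains ATF4, had 155, 190.1 and 170.5 CPM in KO_Opti, 188, 194 and 208 CPM in KO_Norm, 264, 299.7 and 306 CPM in WT_Opti, and 6.13, 15.2 and 3.99 CPM in WT_Norm (log2 fold change 5.09 ± 0.38 SE, edgeR adjusted p = 5.31e-07). Ddit3, which encodes the stress factor CHOP, had 193, 176 and 161 CPM in KO_Opti, 157, 168 and 171 CPM in KO_Norm, 262, 305 and 319.6 CPM in WT_Opti, and 18.1, 25.5 and 15.3 CPM in WT_Norm (log2 fold change 3.91 ± 0.17 SE, edgeR adjusted p = 1.06e-08). Atf4 itself had 470.4, 472 and 459 CPM in KO_Opti, 380.1, 440.2 and 454 CPM in KO_Norm, 414, 446 and 503 CPM in WT_Opti, and 171, 207 and 187 CPM in WT_Norm (log2 fold change 1.27 ± 0.11 SE, edgeR adjusted p = 1.4e-06), and Asns, which encodes asparagine synthetase, had 197, 213 and 208 CPM in KO_Opti, 284, 354 and 349.7 CPM in KO_Norm, 212, 229 and 249 CPM in WT_Opti, and 68.5, 76.8 and 64.7 CPM in WT_Norm (log2 fold change 1.72 ± 0.11 SE, edgeR adjusted p = 1.48e-07). For these 4 genes the WT_Norm libraries were the lowest of 12. Ppp1r15a, which encodes a phosphatase subunit acting on eIF2alpha, had 115, 119.6 and 114 CPM in KO_Opti, 132, 136 and 146 CPM in KO_Norm, 118, 129 and 131 CPM in WT_Opti, and 28.3, 33.1 and 29.4 CPM in WT_Norm and rose (log2 fold change 2.06 ± 0.09 SE, edgeR adjusted p = 7.97e-09). Of the 4 eIF2alpha kinases, 1 was called higher, Eif2ak1, with 57.3, 65.3 and 63.7 CPM in KO_Opti, 64.5, 65 and 63.7 CPM in KO_Norm, 65.2, 64.5 and 63.3 CPM in WT_Opti, and 54.6, 52.7 and 42.5 CPM in WT_Norm (log2 fold change 0.36).

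Other steps of translation were mixed. Of 12 mitochondrial translation factors, 8 were higher and 1 was lower in WT_Opti, with the smallest p for Mtif3 and Lrpprc. The initiation factor Mtif3 had 14.9, 15.5 and 14.9 CPM in KO_Opti, 15.8, 17 and 16.9 CPM in KO_Norm, 18.1, 19.9 and 21.3 CPM in WT_Opti, and 9.23, 10.4 and 9.88 CPM in WT_Norm (log2 fold change 1.003). Lrpprc, which stabilizes mitochondrial mRNA, had 59, 68.9 and 66.8 CPM in KO_Opti, 81.7, 69.9 and 67.5 CPM in KO_Norm, 69.5, 65.3 and 61.9 CPM in WT_Opti, and 36.5, 35.3 and 31.7 CPM in WT_Norm (log2 fold change 0.93). Both were above WT_Norm in every WT_Opti library. Of 6 cytosolic elongation factors, 1 was higher and 2 were lower, Eif5a and Eef1d. Eif5a had 347, 397 and 385 CPM in KO_Opti, 506, 640.1 and 633 CPM in KO_Norm, 301, 318 and 358 CPM in WT_Opti, and 502, 491 and 507 CPM in WT_Norm (log2 fold change -0.62), and Eef1d, a subunit of the exchange factor of eEF1A, had 125, 116 and 121 CPM in KO_Opti, 128, 169 and 165 CPM in KO_Norm, 103, 107 and 120.1 CPM in WT_Opti, and 157, 148 and 156 CPM in WT_Norm (log2 fold change -0.48). Both were below WT_Norm in every WT_Opti library. Of 9 genes that edit, amidate, formylate or release charged tRNA, 3 were higher, among them Gatc. Gatc, a subunit of the mitochondrial glutaminyl-tRNA amidotransferase, had 19.7, 21.3 and 17.7 CPM in KO_Opti, 21.1, 24.9 and 21.9 CPM in KO_Norm, 21.3, 23.3 and 24.3 CPM in WT_Opti, and 11.6, 13.1 and 13.6 CPM in WT_Norm (log2 fold change 0.85), again without overlap.

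Promoters were read for the letters of the factors known for each compartment. RefSeq windows (GRCm38.p6) from 250 bases before to 50 bases after the start matched 30 of the 41 genes, 12 cytosolic, 14 mitochondrial, Gars and 3 others. Aarsd1, Aimp2 and Dalrd3 were the 3 others, and Cars, Hars, Hars2, Lars, Nars, Pars2, Rars, Vars, Wars and Gm27029 were among those not matched. The core of the C/EBP-ATF response element, TGATGNAA on either strand, was present in 4 of 12 cytosolic windows, in that of Gars and in 0 of 14 mitochondrial genes, against 4.51% of all 27025 genes with a window. The letters GCATGCG, part of the palindrome that nuclear respiratory factor 1 binds, were present in 5 of 14 mitochondrial genes and 0 of 12 cytosolic genes, against 4.01% of all genes. A match is a description of letters only, not a site shown to be bound.

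The cytosolic genes with the response element letters were Aars, Iars, Tars and Yars, and all 4, like Gars, were higher in WT_Opti than in WT_Norm. Of the 8 cytosolic genes with a window and no match, 4 were higher too, Sars, Eprs, Mars1 and Tarsl2, and Sars had the largest log2 fold change of the 41 genes. The matched stretches are shown 5′ to 3′ on the gene's strand with the matched letters in capitals, for Aars, Gars and Tars as the 250 bases before the start and for Iars and Yars as 30 bases around it.
Aars, chr8:111033592-111033841, + strand: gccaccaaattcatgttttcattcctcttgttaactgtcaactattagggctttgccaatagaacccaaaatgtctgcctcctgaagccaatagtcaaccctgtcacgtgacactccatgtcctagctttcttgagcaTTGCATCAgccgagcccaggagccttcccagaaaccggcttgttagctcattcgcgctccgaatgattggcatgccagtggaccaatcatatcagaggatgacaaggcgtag
Gars, chr6:55037751-55038000, + strand: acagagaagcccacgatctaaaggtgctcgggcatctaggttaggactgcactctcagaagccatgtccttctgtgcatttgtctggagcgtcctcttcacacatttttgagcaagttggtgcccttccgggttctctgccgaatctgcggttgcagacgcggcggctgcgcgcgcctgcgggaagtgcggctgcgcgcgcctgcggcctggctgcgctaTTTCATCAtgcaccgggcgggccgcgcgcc
Tars, chr15:11399659-11399908, - strand: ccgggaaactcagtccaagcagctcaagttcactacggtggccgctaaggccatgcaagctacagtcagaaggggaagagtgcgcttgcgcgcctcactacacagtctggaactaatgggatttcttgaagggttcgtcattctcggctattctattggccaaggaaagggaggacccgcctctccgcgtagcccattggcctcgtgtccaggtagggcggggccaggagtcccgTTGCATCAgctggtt
Iars, chr13:49682126-49682155, + strand: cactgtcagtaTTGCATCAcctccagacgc
Yars, chr4:129189895-129189924, + strand: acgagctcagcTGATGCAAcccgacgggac
The match began 112 bases before the start in Aars, 30 in Gars and 15 in Tars, and Aars held a second match 10 bases into the transcript. In Iars and Yars it began at base 8 and base 4 of the transcript.

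The mitochondrial genes with the letters GCATGCG on either strand were Nars2, Rars2, Vars2, Wars2 and Yars2. They are shown in the same way, with Vars2 and Wars2 over the 250 bases before the start and the others as 30 bases.
Vars2, chr17:35667593-35667842, - strand: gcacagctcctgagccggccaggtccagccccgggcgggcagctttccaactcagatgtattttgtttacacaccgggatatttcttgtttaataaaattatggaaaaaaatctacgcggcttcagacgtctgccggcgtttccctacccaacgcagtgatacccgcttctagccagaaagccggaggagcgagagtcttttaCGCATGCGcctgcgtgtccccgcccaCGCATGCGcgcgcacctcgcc
Wars2, chr3:99140840-99141089, + strand: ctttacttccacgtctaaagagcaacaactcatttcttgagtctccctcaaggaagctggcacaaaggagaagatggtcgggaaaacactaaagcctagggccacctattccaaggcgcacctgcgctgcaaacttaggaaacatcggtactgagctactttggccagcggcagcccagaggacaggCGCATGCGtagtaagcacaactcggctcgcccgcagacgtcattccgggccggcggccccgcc
Nars2, chr7:96951471-96951500, + strand: ggacacaatcaCGCATGCtcagactccacc
Rars2, chr4:34614895-34614924, + strand: cggccccgtgtGCATGCGcactccacactt
Yars2, chr16:16302897-16302926, + strand: gctacgcccgaGCATGCGtagagagacacc
Of these 5, Nars2 and Wars2 were higher in WT_Opti than in WT_Norm, and Rars2, Vars2 and Yars2 were not called. Matches on opposite strands overlap in Vars2 and Wars2, where the letters read as a palindrome.

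**Figure D3:**
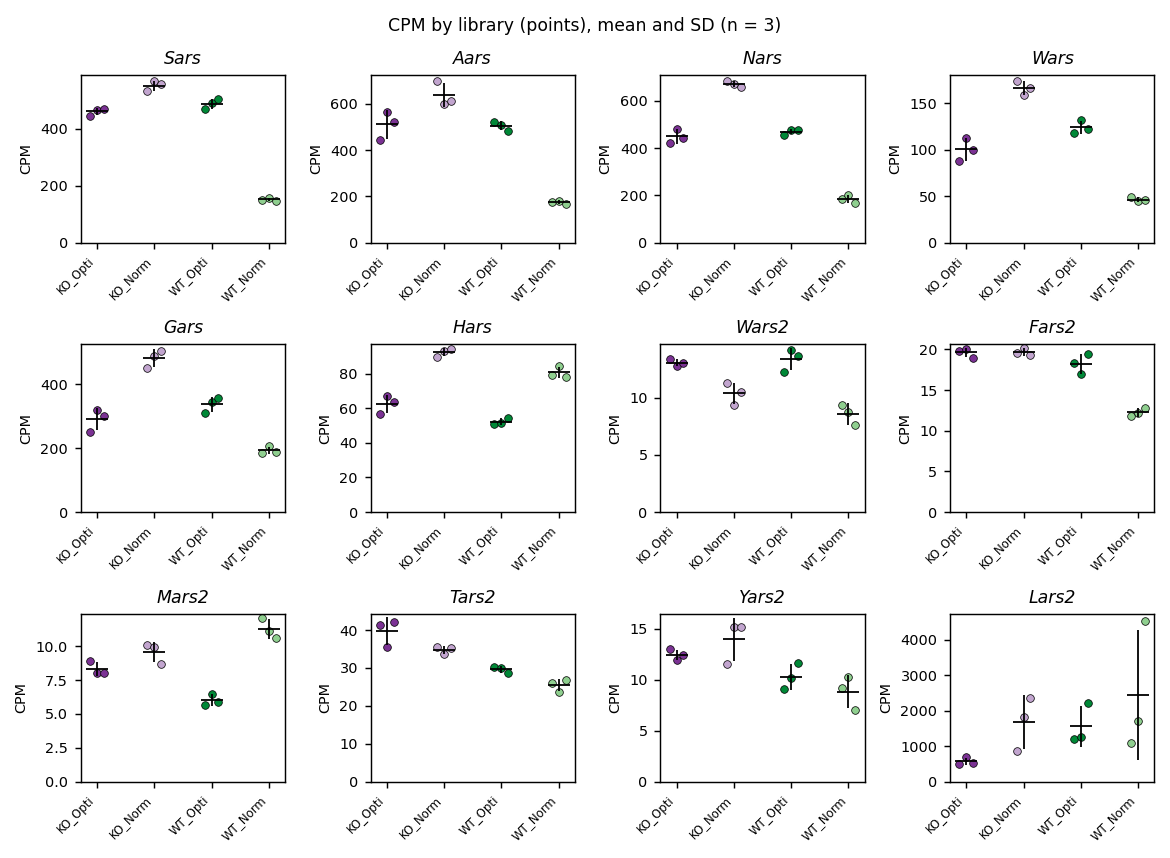
CPM of 12 of the genes in each library (points), with the mean and SD of 3 libraries (bars), for KO_Opti, KO_Norm, WT_Opti and WT_Norm from left to right. Sars, Aars, Nars and Wars are lowest in WT_Norm and highest in KO_Norm, Hars and Mars2 are lowest in WT_Opti, and Lars2 spans 1102 to 4533 CPM within WT_Norm.

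The genotype comparison asked whether cells without NG2 differed from WT when both media were averaged, and it does not depend on the reading of the KO labels. In KO, 23 of 41 genes were higher and 2 were lower than in WT, beside 18% of all genes called higher and 16% called lower. Of the cytosolic enzymes 16 of 19 were higher (median log2 fold change 0.52), and of the mitochondrial enzymes 5 of 17 were higher (median 0.13, against 0.01 over all genes). By title, 23 of 41 genes were higher and 0 lower in KO_Norm than in WT_Norm, beside 18.9% and 17.2% of all genes. In KO_Opti against WT_Opti 8 were higher and 4 lower, beside 13.3% and 14.9%. By the treatment entry more genes were called higher than lower in both media, as given below. The same WT_Norm libraries enter this average, WT_Opti against WT_Norm, KO_Norm against WT_Norm and the interaction. The sum of 6 mural cell markers also separated KO from WT. It was 10.2 to 13.2 CPM in KO_Opti and 11.8 to 19.9 CPM in KO_Norm. In WT_Opti it was 37.2 to 59.2 CPM and in WT_Norm 37.4 to 39.3 CPM, with no overlap between KO and WT. Notch3 made up most of it, and the 6 genes did not all move together. In KO_Opti against WT_Opti, Notch3 (log2 fold change -2.17) and Abcc9 (-2.59) were called lower and Rgs5 (1.72) was called higher. The other mural markers were not called there. The part of these markers was not tested. Of the 41 genes, Tarsl2 (-0.44) and Lars2 (-0.998 ± 0.33 SE) were the ones lower in KO than in WT. The Lars2 call was lost without the filter on low counts, by either limma fit, and without WT_Norm replicate 3, WT_Opti replicate 3, KO_Opti replicate 1 or 3, or KO_Norm replicate 1 or 2.

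The smallest p-values among cytosolic enzymes were those of Sars (log2 fold change 0.89 ± 0.06 SE, edgeR adjusted p = 1.7e-07), Cars (log2 fold change 0.83 ± 0.06 SE, edgeR adjusted p = 4.47e-07), Yars (log2 fold change 0.71 ± 0.05 SE, edgeR adjusted p = 6.53e-07) and Nars (log2 fold change 0.90 ± 0.07 SE, edgeR adjusted p = 6.65e-07). For Cars and Yars the KO libraries all exceeded the WT libraries, whereas for Sars and Nars the WT_Opti libraries reached into the KO range. Among mitochondrial enzymes, Tars2, the threonyl enzyme, had 41.5, 35.6 and 42.2 CPM in KO_Opti, 35.5, 33.7 and 35.2 CPM in KO_Norm, 30.3, 30.1 and 28.6 CPM in WT_Opti, and 26.1, 23.8 and 26.8 CPM in WT_Norm (log2 fold change 0.43 ± 0.06 SE, edgeR adjusted p = 0.000213). Every KO library of Tars2 was above every WT library. Yars2, the tyrosyl enzyme, had 13, 12 and 12.4 CPM in KO_Opti, 11.5, 15.1 and 15.2 CPM in KO_Norm, 9.10, 10.1 and 11.6 CPM in WT_Opti, and 9.19, 10.3 and 7.05 CPM in WT_Norm (log2 fold change 0.46 ± 0.11 SE, edgeR adjusted p = 0.00735), and here WT_Opti and KO_Norm overlapped. Aars2, the alanyl enzyme, had 15.2, 12.9 and 14.8 CPM in KO_Opti, 12.7, 13.3 and 13.6 CPM in KO_Norm, 12.3, 9.90 and 10.4 CPM in WT_Opti, and 11.6, 10.1 and 12.5 CPM in WT_Norm and was higher in KO with no overlap (log2 fold change 0.30 ± 0.09 SE, edgeR adjusted p = 0.0206). Fars2 was called too (log2 fold change 0.39 ± 0.07 SE, edgeR adjusted p = 0.00052), with WT_Opti replicate 3 inside the KO range and the other WT libraries below it.

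With the log2 summed CPM of the 4 Y-linked genes as a covariate, an alternative chosen after seeing the data, 7 genes were called higher. Over all genes the counts fell to 407 higher and 579 lower, against 3437 and 3054 without it. The covariate overlaps with genotype. Kdm5d had 13.0 to 16.3 CPM in KO_Opti and 21.3 to 26.0 CPM in KO_Norm, against 8.22 to 9.60 CPM in WT_Opti and 7.83 to 10.2 CPM in WT_Norm. Sex of the pups, genotype and loss of power cannot be told apart by this fit. Upper quartile scaling turned the balance over all genes to 2414 higher and 3821 lower, and left 20 of the 41 genes called higher.

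Within medium, by title, 23 of 41 genes were higher and 0 lower in KO_Norm than in WT_Norm, beside 18.9% and 17.2% of all genes. The cytosolic count was 16 of 19 with a median log2 fold change of 0.94, and the mitochondrial count was 6 of 17 with a median of 0.24. The largest differences were those of Nars (1.87), Sars (1.86), Aars (1.86) and Wars (1.84), and 20 of 21 amino acid response genes were also higher. All WT_Norm libraries lay below all KO_Norm libraries for these 4 enzymes. The count of 0 lower was also 0 by edgeR at an unadjusted p under 0.05 and 0 by DESeq2, and 1 with upper quartile scaling. Upper quartile scaling gave 2555 higher and 4050 lower over all genes, against 3615 and 3281, with a median over all genes of -0.16 against -0.04, and left 20 of the 41 genes called higher. With the Y-linked covariate, which overlaps with genotype, 9 were higher.

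In the serum-free medium, by title, fewer of the genes were called. In KO_Opti against WT_Opti, 8 of 41 genes were higher and 4 lower, beside 13.3% and 14.9% of all genes, and the median was 0.02 for cytosolic and 0.11 for mitochondrial enzymes. Farsa (0.56) and Hars (0.26) were the cytosolic enzymes called higher, and Wars (-0.31) and Tarsl2 (-0.84) those called lower. Of the mitochondrial enzymes Mars2 (0.46), Tars2 (0.42), Hars2 (0.41) and Aars2 (0.39) were higher, and Lars2 (-1.44) was among the lower ones. Of the other genes Aimp2 (0.46) and Dalrd3 (0.67) were higher. These counts rested on single libraries. Without WT_Opti replicate 1, 2 or 3 the higher count was 5, 3 or 5, and without KO_Opti replicate 3 or KO_Norm replicate 3 it was 5. The lower count was 1 without WT_Opti replicate 2 or KO_Opti replicate 3, and 2 without WT_Opti replicate 3 or KO_Opti replicate 1. All 8 myeloid and osteoclast markers tested were lower in KO_Opti than in WT_Opti, and their part was not tested.

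By the treatment entry, the libraries titled KO_Opti are the KO cells in Norm medium and those titled KO_Norm are the KO cells in Opti medium. KO against WT in Norm is then the comparison of the libraries titled KO_Opti with WT_Norm, in which 22 of 41 genes were higher and 4 lower, beside 21.3% and 20.3% of all genes. KO against WT in Opti is then that of the libraries titled KO_Norm with WT_Opti, with 17 higher and 2 lower, beside 12.6% and 11% of all genes. Most cytosolic enzymes were among the higher ones, such as Hars (0.82), Farsb (0.69) and Farsa (0.58), and Tarsl2 (-0.49) was lower. Of the mitochondrial enzymes Mars2 (0.67) was called higher and Wars2 (-0.36) lower. In both readings KO cells in Norm medium had more members called higher than lower against WT_Norm. The readings cannot be told apart from the labels.

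A pattern free of that choice was that WT_Norm lay lowest. For 18 of 41 genes the highest WT_Norm library was below the lowest of the other 9 libraries, beside 12.7% of all genes tested. They were 12 of 19 cytosolic enzymes, 4 of 17 mitochondrial enzymes (Fars2, Nars2, Tars2 and Wars2), Gars and Dalrd3. This count was chosen after seeing the data. The summed fibrochondrocyte markers moved with the same group. They reached 30982 to 44808 CPM in KO_Opti and 58252 to 76860.0 CPM in KO_Norm. In WT_Opti they reached 85748 to 98249.9 CPM and in WT_Norm 117106 to 129642 CPM. Col1a1 and Col1a2 made up most of this sum. Acan was also highest in WT_Norm, whereas Prg4 was lowest there, at 3.26 to 4.17 CPM against 21.1 to 28.6 CPM in KO_Opti. Sox9 had 40.6 to 53.2 CPM in WT_Norm, below KO_Opti (66.6 to 84.9 CPM) and KO_Norm (59.8 to 68.4 CPM). The part of these markers was not tested. In a bulk sample fewer cells of a type and less RNA per cell cannot be told apart.

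Summed over each compartment, the 19 cytosolic enzymes reached 626 ± 35 FPKM in KO_Opti, 754 ± 5.79 FPKM in KO_Norm, 585 ± 10.8 FPKM in WT_Opti and 291 ± 48.8 FPKM in WT_Norm (SD, n = 3). The 16 mitochondrial enzymes without Lars2 reached 56.8 ± 2.46 FPKM in KO_Opti, 52.5 ± 0.647 FPKM in KO_Norm, 49.99 ± 0.867 FPKM in WT_Opti and 38 ± 5.71 FPKM in WT_Norm (SD, n = 3). The ratio of the sums was 9.99 to 12.2 in KO_Opti, 14.1 to 14.6 in KO_Norm, 11.5 to 12.1 in WT_Opti and 7.44 to 7.85 in WT_Norm. WT_Norm had the lowest ratio and KO_Norm the highest, with no overlap of either with another group. With Lars2 included the ratio was 5.59 to 6.04 in KO_Opti, 3.02 to 6.26 in KO_Norm, 2.44 to 3.83 in WT_Opti and 0.722 to 2.45 in WT_Norm, so KO_Norm and WT_Norm each overlapped with another group. These FPKM sums carry no scaling by trimmed mean of M values. In CPM, which do, the groups lay closer for the 16 mitochondrial enzymes. Their sum was 297 to 311 CPM in KO_Opti, 300 to 321 CPM in KO_Norm, 280 to 282 CPM in WT_Opti and 238 to 261 CPM in WT_Norm.

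**Figure D4:**
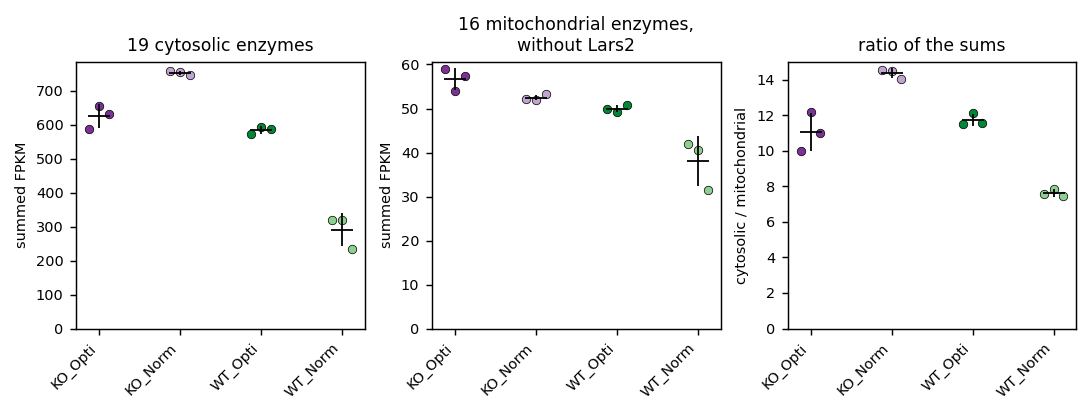
Summed FPKM of the 19 cytosolic enzymes, of the 16 mitochondrial enzymes without Lars2, and their ratio, in each library (points) with the mean and SD of 3 libraries (bars). WT_Norm lies lowest in all 3 panels, and its ratio of 7.44 to 7.85 is below the 11.5 to 12.1 of WT_Opti.

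Between media, most cytosolic enzymes had a log2 fold change of the opposite sign in KO from that in WT, by title. Not all of these were called in both genotypes. Dars, Rars and Farsb were not called in WT, and Eprs, Iars, Mars1 and Tarsl2 were not called in KO. In KO_Opti against KO_Norm, 2 of 41 genes were higher and 16 lower, beside 8.39% and 11% of all genes, and 13 of 19 cytosolic enzymes were among the lower ones (median log2 fold change -0.35). Wars (-0.73), Gars (-0.72), Nars (-0.58) and Hars (-0.57) were lower in every KO_Opti library than in every KO_Norm library. By title, Hars was lower in the serum-free medium in both genotypes. Among mitochondrial enzymes Hars2 (0.46) was higher, and Pars2 (-0.66) and Lars2 (-1.54) were lower. The lower count was 8 without KO_Opti replicate 1 or KO_Norm replicate 2 and 7 without KO_Opti replicate 3 or KO_Norm replicate 3. The higher count of 2 became 1 without WT_Norm replicate 1, WT_Opti replicate 2, KO_Opti replicate 1 or 3, or any KO_Norm library. By the treatment entry the sign of this comparison turns by definition. Xist and the Y-linked genes Ddx3y, Kdm5d and Uty also separated KO_Opti from KO_Norm without overlap. The part of the sex of the pups was not tested beyond the Y-linked covariate.

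The interaction term, the medium difference in KO minus that in WT, tested whether these differences differed, not whether their signs were opposite. By title it was negative and past 0.05 for 22 of 41 genes and positive for 2, beside 17% and 14.4% of all genes, and 16 of 19 cytosolic and 5 of 17 mitochondrial enzymes were negative. Sars (log2 fold change -1.95 ± 0.11 SE, edgeR adjusted p = 1.87e-07), Wars (log2 fold change -2.15 ± 0.14 SE, edgeR adjusted p = 3.48e-07) and Nars (log2 fold change -1.94 ± 0.13 SE, edgeR adjusted p = 5.09e-07) had the smallest p-values of the cytosolic enzymes, and Fars2 (log2 fold change -0.58 ± 0.13 SE, edgeR adjusted p = 0.00503), Pars2 (log2 fold change -1.19 ± 0.28 SE, edgeR adjusted p = 0.00616) and Mars2 (log2 fold change 0.70 ± 0.17 SE, edgeR adjusted p = 0.00904) those of the mitochondrial enzymes. Mars2 and Aimp2 were the positive ones, 1 of which was lost without WT_Norm replicate 1, WT_Opti replicate 1 or 2, KO_Opti replicate 3, or KO_Norm replicate 1 or 3, and there were 4 without KO_Opti replicate 2. Pars2 had 4.45, 2.83 and 2.97 CPM in KO_Opti, 5.58, 5.16 and 5.41 CPM in KO_Norm, 5.49, 5.33 and 4.15 CPM in WT_Opti, and 3.49, 3.35 and 3.52 CPM in WT_Norm, so that it was above WT_Norm in both KO_Norm and WT_Opti. By the treatment entry the term was negative for 13 genes and positive for 6, beside 17.5% and 17.2% of all genes. It stayed negative and past 0.05 for Sars (-1.43), Wars (-0.69), Nars (-0.78) and Fars2 (-0.57), was not past 0.05 for Pars2 and Gars, and was positive for Mars2 (1.11). By either reading, the KO groups of this term also differed in Xist and Y-linked genes.

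**Figure D5:**
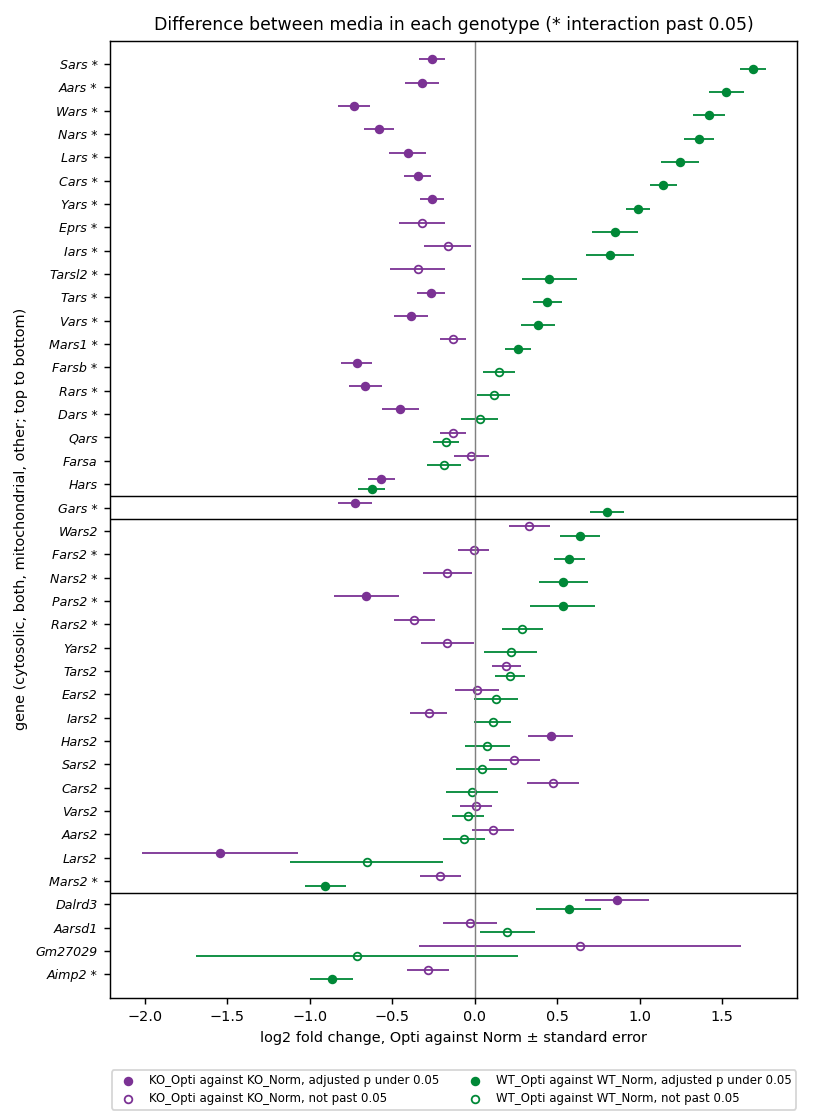
Log2 fold change between media, Opti against Norm, with its standard error for 40 of the 41 genes in KO (purple) and WT (green), by title. Filled points passed an adjusted p of 0.05, and a star marks genes whose interaction term passed it. Cytosolic enzymes from Sars to Vars lie right of 0 in WT and left of 0 in KO.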

How the data were processed

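RNA-seq counts per gene and FPKM values were used for 12 libraries. The authors aligned reads of a stranded poly(A) kit with HISAT2 and assembled and quantified genes with StringTie after FastQC, and tested counts with edgeR. Versions, build and counting strand are not stated in the labels or methods, and 99.99% of the gene positions matched to GENCODE M21 overlapped it. The deposited counts are whole and not normalized, and the deposited FPKM values are scaled by transcript length and library size. The authors' own fold changes and p-values in the table were not used.

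Counts were tested with edgeR 4.0.16 in R 4.3.3 (filterByExpr, TMM, quasi-likelihood test, a term for each of 4 groups over 12 libraries) and adjusted by Benjamini-Hochberg over 19118 genes at 0.05. Alternatives were RLE and upper quartile scaling, DESeq2 1.42.0, no filter, limma 3.58.1 on log2(FPKM + 0.1) and log2(FPKM + 1), only the groups compared, a replicate block, each library left out, the treatment entry, and a Y-linked covariate chosen after seeing the data. Functions were tested on simulated data. Precision is set by 51546504 to 71448484 counts per library and 3 libraries per group.

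Values in every library are given for the 6 cytosolic and 4 mitochondrial genes with the smallest p in WT_Opti against WT_Norm, the 4 and 4 in KO against WT, the 3 and 3 in the interaction, genes opposite to their compartment, Gars and Kars, and named genes of other lists. Members and lists were chosen with earlier results of these data known. Of motifs, only letters were matched, and proteins were not compared. Some genes are not reported here by name, although counts and sums include them.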

Additional observations from a re-analysis of the deposited data

Results flagged for a closer look

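The medium difference itself differed between KO and WT for 24 of the 41 genes, by the interaction term of the edgeR fit at an adjusted p under 0.05, with KO groups taken from the title. The values are the log2 difference between media in KO minus that in WT. Cytosolic enzymes with a lower value in KO were Wars (-2.15), Sars (-1.95), Nars (-1.94), Aars (-1.85), Lars (-1.65), Cars (-1.49), Yars (-1.25), Eprs (-1.17), Iars (-0.98), Farsb (-0.86), Tarsl2 (-0.80), Rars (-0.78), Vars (-0.77), Tars (-0.70), Dars (-0.48) and Mars1 (-0.40). Gars and mitochondrial enzymes with a lower value in KO included Gars (-1.53), Pars2 (-1.19), Nars2 (-0.70), Rars2 (-0.65) and Fars2 (-0.58). A higher value in KO was found for Aimp2 (0.59) and Mars2 (0.70). Groups of 3 libraries are too small for a test of single outlying libraries.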

How the results depend on the processing

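Counts of the 41 genes called in WT_Opti against WT_Norm stayed within 1.5 times of 20 higher and 3 lower under every alternative run. In KO against WT the lower count of 2 became 1 without the filter on low counts and 0 by limma on log2(FPKM + 0.1) or log2(FPKM + 1), and the Y-linked covariate gave 7 higher and 0 lower. In KO_Norm against WT_Norm the lower count of 0 became 1 with upper quartile scaling and 4 by the treatment entry, and the covariate gave 9 higher. In KO_Opti against WT_Opti, 8 higher became 5 with upper quartile scaling, 17 by the treatment entry and 4 with the covariate, and 4 lower became 2 without the filter, 2 and 1 by limma with 0.1 and 1 added, 2 by the treatment entry and 1 with the covariate. In KO_Opti against KO_Norm, 2 higher became 4 with upper quartile scaling, 4 by DESeq2, 1 without the filter, 1 with only these groups and 0 with the covariate, and 16 lower became 6 by either limma fit and 7 with the covariate. For the interaction, 2 positive became 0 by either limma fit, 6 by the treatment entry and 1 with the covariate, and 22 negative became 13 by the treatment entry and 13 with the covariate. The cause was not tested.

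Leaving out each library in turn gave 15 to 20 higher and 3 to 4 lower in WT_Opti against WT_Norm, 21 to 24 higher and 1 to 2 lower in KO against WT, 20 to 23 higher and 0 lower in KO_Norm against WT_Norm, 3 to 9 higher and 1 to 5 lower in KO_Opti against WT_Opti, 1 to 3 higher and 7 to 18 lower in KO_Opti against KO_Norm and 1 to 4 positive and 17 to 23 negative interactions.

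Among genes past 0.05 in at least 1 of the 2 readings, the direction by the treatment entry turned in the Norm comparison for Hars (-0.37) and Pars2 (-0.016), in the Opti comparison for Gars (0.51), Nars (0.51), Wars (0.42) and Dalrd3 (-0.19), and in the interaction for Dars (0.42), Farsb (0.57), Rars (0.55), Vars (0.0023), Hars2 (-0.54), Lars2 (2.20), Pars2 (0.12), Rars2 (0.078) and Dalrd3 (-1.43). With the Y-linked covariate, among genes past 0.05 with or without it, the direction turned in KO against WT for Eprs (-0.0043) and Lars2 (0.85). Limma on log2(FPKM + 0.1) gave a median over all genes of 0.18 in WT_Opti against WT_Norm, 0.11 in KO against WT and 0.12 in KO_Norm against WT_Norm, with 5428 higher and 2364 lower, 4682 higher and 2165 lower, and 4615 higher and 2108 lower over all genes.

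Same-numbered libraries did not deviate together (3 of 18 pairs with r above 0.1, from -0.198 to 0.151), so the numbers were not taken as pairs. With the replicate block the counts were 18 higher and 3 lower in WT_Opti against WT_Norm, 23 higher and 2 lower in KO against WT, 22 higher and 0 lower in KO_Norm against WT_Norm, 8 higher and 5 lower in KO_Opti against WT_Opti, 2 higher and 14 lower in KO_Opti against KO_Norm and 2 positive and 22 negative interactions. Depth limits the low genes most, Gm27029 at 0 to 169 counts a library.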
